A study of Mus musculus with 16 samples.

Results

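The last interval of an actinomycin D time course was examined in wild-type mouse cells, from 3 h to 5 h after the drug was added. Its members are 4 of the 16 libraries of the series, the 2 labelled WT 5 h and the 2 labelled WT 3 h, and all genes counted in them. The cell type label is LT-HSCs, long-term haematopoietic stem cells of mouse bone marrow, although every sample title names 32D, a myeloid cell line, and the labels do not settle which holds. Lineage-depleted marrow was cultured in StemSpan SFEM with stem cell factor, thrombopoietin and heparin, treated with 5 µM actinomycin D, and stem cells were sorted at each time, so WT 5 h and WT 3 h are separate sorts of treated cells. The treatment protocol also lists a 4 h sort, which matches no labelled sample used here, so the length of the interval rests on the labels. The groups used here were WT at 5 h, WT at 3 h, WT at 1 h, WT at 0 h and, for counts of genes only, the libraries labelled Nat10 deficiency at the same 4 times, with 2 libraries each. The strain, the age and the means by which Nat10 was removed are not given in the sources used here. Polyadenylated RNA was measured with Smart-seq2 libraries after an equal amount of ERCC spike-in RNA, a set of synthetic transcripts, had been added to each RNA sample.

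Actinomycin D intercalates into DNA and stops RNA polymerases, so that mRNAs made before the block are lost at the pace of their own decay. In mammalian cells, mRNAs of immediate-early genes and many transcription factors are known to decay quickly, often through AU-rich elements in their 3′ untranslated regions (3′ UTRs). Those AU-rich elements recruit deadenylases, which shorten the poly(A) tail before the transcript is decapped and degraded. Messenger RNAs of ribosomal proteins, of metabolic enzymes and of secreted immunoglobulins are known as long-lived.

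The 2 WT 5 h libraries held 14000072 and 11288586 counts and the 2 WT 3 h libraries 9702619 and 9142413. ERCC transcripts took 2.52% and 2.51% of the counts at WT 5 h and 2.24% and 2.24% at WT 3 h. Immunoglobulin genes took 59.7% and 59.2% of the gene counts at WT 5 h, against 49.6% and 49.3% at WT 3 h. The files of each group name the same alignment in their headers, and over genes with at least 20 summed counts they differed with a chi-square per degree of freedom of 1.55 at WT 5 h and 1.43 at WT 3 h, against 82.4 between the 2 times. The labels call them biological replicates. Nothing says they came from separate cultures or animals, so the p-values below measure only the spread between files, which may be technical. Per ERCC count, the WT 5 h libraries held 15.6 and 15.8 non-immunoglobulin counts and the WT 3 h libraries 22.0 and 22.1. Immunoglobulin counts per ERCC count were 23.0 and 23.0 at WT 5 h and 21.6 and 21.5 at WT 3 h. In such bulk samples, fewer cells of a type and less RNA per cell cannot be told apart.

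Markers of several blood lineages were present at both times. Of the stem cell markers, Procr, the receptor used to sort stem cells, had 564 and 462 counts at WT 5 h and 604 and 616 at WT 3 h, and Mecom, a transcription factor of long-term stem cells, had 119 and 84 against 303 and 237. Mpo, the myeloperoxidase of granulocytes, had far more counts, 36698 and 29528 at WT 5 h and 32113 and 30795 at WT 3 h. The plasma cell surface marker Sdc1 had 7570 and 6063 counts at WT 5 h, against 5844 and 5793 at WT 3 h. Counts of single markers in this paragraph are not scaled for depth, so they show presence and not change. ERCC counts were 353458 and 283734 at WT 5 h, against 217180 and 204836 at WT 3 h. The 20 plasma cell markers, of which Jchain made up most, summed to 180456 and 182275 CPM (counts per 1000000 non-immunoglobulin counts) at WT 5 h, against 120417 and 119496 at WT 3 h. Jchain alone had 173017 and 174948 CPM at WT 5 h, against 111994 and 110889 at WT 3 h. Relative to non-immunoglobulin counts, 11 of the 20 were lower and 8 higher. The 40 stem cell identity genes summed to 2089 and 2088 CPM at WT 5 h, against 2957 and 2910 at WT 3 h. The 19 neutrophil and monocyte markers summed to 14330 and 14197 CPM at WT 5 h, against 14313 and 14389 at WT 3 h, and the 22 B cell markers to 7103 and 7076 against 5000.4 and 5012. Of the markers of other lineages, the T cell marker Cd3e had 20 and 27 counts at WT 5 h and 63 and 73 at WT 3 h, and the macrophage marker C1qa had 0 counts in all 4 libraries. The part of this shift in composition in the changes below was not tested.

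Most mRNAs went on falling between 3 and 5 h. Scaled on ERCC counts, 16006 of 25081 genes tested were lower at WT 5 h than at WT 3 h (63.8%) and 1976 were higher (7.88%), so 71.7% were called in either direction, by edgeR's quasi-likelihood test at a Benjamini-Hochberg adjusted p under 0.05. The median change over all genes tested was −1.06 on the log2 scale, and 11992 genes fell by at least 2-fold. Of the genes tested, 4987 had 0 counts at WT 5 h only, 1120 had 0 at WT 3 h only and 1620 had 0 at both times. Those genes passed the filter through the other time or through other groups, and they weigh on these shares and medians. Scaled on non-immunoglobulin counts, which asks how a gene moved relative to the other genes, 12413 were lower (49.5%) and 3684 higher (14.7%), with a median of −0.58. All 12413 genes that were lower on that scale were also lower per ERCC count, while 420 genes were lower per ERCC count and higher relative to the other genes. On TMM factors, which set the bulk of genes near no change, 8816 genes were lower and 6974 higher with a median of −0.05, so higher calls made up 44.2% of the calls in place of 22.9%. On median-of-ratios factors higher calls made up 39.7%.

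These counts rest on the spread between files. An alternative changed both the libraries and the model: the 2 files of each group were summed to 1 library, and the 8 libraries were fitted with a time course shared by both genotypes and a slope difference, so that the WT change also draws on the libraries labelled Nat10-deficient. In it edgeR called 1013 genes lower and 0 higher per ERCC count, with 4935 at an unadjusted p under 0.05. Relative to non-immunoglobulin counts it called 8 lower and 0 higher, with 2650 at an unadjusted p under 0.05. The median change per ERCC count in that fit was −1.09.

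The median change differed with the level of an mRNA. Levels are the mean of WT 5 h and WT 3 h in CPM of non-immunoglobulin counts, so they are not independent of the change, and the classes are a description. The 113 genes at 1024 or above had a median change per ERCC count of −0.20, the 450 genes from 256 to 1024 one of −0.39, the 2051 genes from 64 to 256 one of −0.65 and the 4347 genes from 16 to 64 one of −0.91. The 4694 genes from 4 to 16 had a median of −1.17, the 7487 genes from 1 to 4 one of −2.32 and the 5939 genes under 1 one of −1.19. Low classes hold most of the genes at 0 in 1 or both groups. Among the 6961 genes at 16 or above, 83.7% were lower and 4.42% higher, with a median of −0.75, and 943 (13.5%) lay within 0.25 of no change. Gene lists below are read beside that median as well as the median of all genes. Counts of members called are read beside the shares over all genes tested. These were 63.8% lower and 7.88% higher per ERCC count, and 49.5% and 14.7% relative to non-immunoglobulin counts. Of the 6961 genes, 3678 were lower and 1406 higher relative to non-immunoglobulin counts. The direction of list medians depends on the scale: of 36 lists, 2 had a median above 0 per ERCC count, 7 relative to non-immunoglobulin counts and 25 on TMM factors. The 11 lists below 0 on all 3 scales were eosinophil, megakaryocyte, mast cell, macrophage and dendritic cell markers, nuclear long noncoding RNAs, stem cell identity genes, chromatin regulators, zinc finger genes, decay genes and, at −0.00137 on TMM factors, immediate-early genes. Long mRNAs lost more than short ones: with these 6961 genes cut into 5 equal groups by exonic length, shortest to longest, the medians were −0.49, −0.67, −0.75, −0.88 and −1.01. These genes were also cut into 5 equal groups by their change in the first hour, from WT 0 h to WT 1 h. From the steepest early fall on, the median late changes were −0.92, −0.77, −0.70, −0.72 and −0.64. The last group spans early log2 changes from −0.64 to 9.96, so it also holds genes that rose in the first hour.

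**Figure D1:**
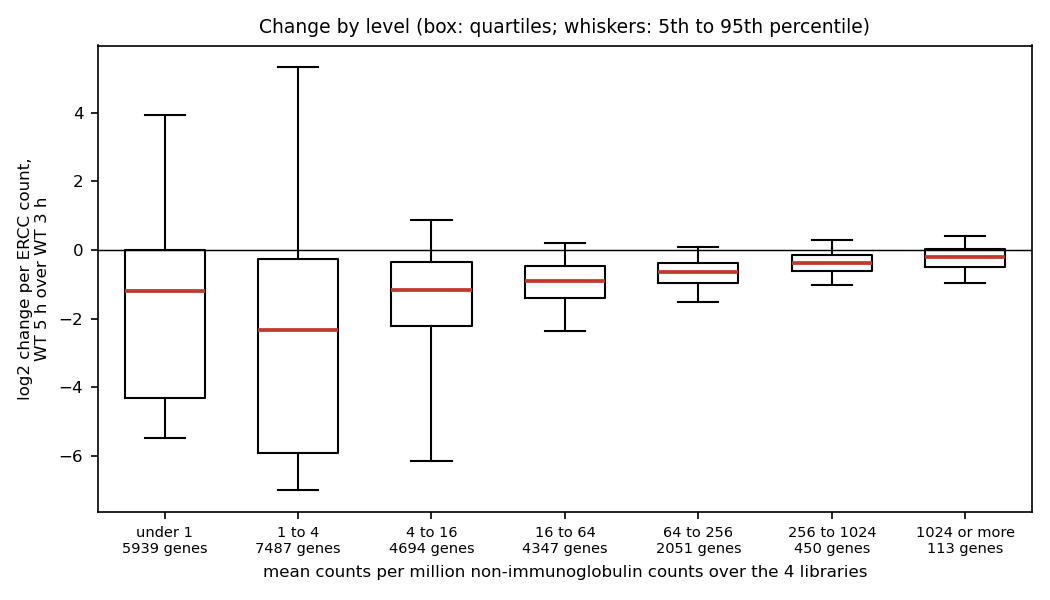
Box plots of the log2 change per ERCC count, WT 5 h against WT 3 h, for all 25081 genes tested, in 7 classes of mean level in CPM of non-immunoglobulin counts. Medians run from −0.20 in the highest class to −2.32 in the class from 1 to 4.

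Some abundant mRNAs outside the immunoglobulin genes were close to their earlier level and others were not. Of the 113 genes at a level of 1024 or above, 64.6% were lower and 23.9% higher per ERCC count. The next genes were chosen as the most abundant within 0.25 of no change, so that they are kept is fixed by the choice. Values here are counts per 100000 ERCC counts. Eef1a1, the elongation factor that brings aminoacyl-tRNA to the ribosome, lies at chr9:78385731-78396433 on the minus strand of GRCm39. It had 26991 and 27375 at WT 5 h, against 27965 and 28411 at WT 3 h. The groups did not overlap, yet the fall of 0.05 ± 0.03 (log2, standard error) was not called (edgeR, adjusted p = 0.098). Ftl1, the light chain of ferritin, had 13112 and 13593 at WT 5 h and 13196 and 13813 at WT 3 h, with overlapping groups and 98.9% left. Rplp0, a protein of the ribosomal stalk, had 10005 and 10060 against 10246 and 10506, also not called. Psap, the precursor of lysosomal activator proteins, kept 96.9% and Ly6e, a membrane-anchored surface protein, 99.1%, and neither was called. B2m, the light chain of class I histocompatibility molecules, fell to 16790 and 16639, against 18897 and 18398, a log2 change of −0.16 ± 0.03 with 89.6% left. Gapdh of glycolysis kept 89.3% and the prolyl isomerase Ppia 90.0%, and both were called lower. At similar levels, mt-Cytb, cytochrome b of complex III, fell to 2782 and 2860, against 6217 and 6044, with 46.0% left, and Mpo to 10383 and 10407, against 14786 and 15034, with 69.7% left.

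Ribosomal protein mRNAs were among the best kept. Of 77 cytosolic ribosomal protein genes tested, 52 were lower and 1 higher per ERCC count with a median of −0.18, that is 88.2% left, while relative to non-immunoglobulin counts 3 were lower and 55 higher. Rps3, of the small subunit, had 4181 and 4281 counts per 100000 ERCC counts at WT 5 h, against 4480 and 4378 at WT 3 h, and was not called. Rpl4, of the large subunit, had 8213 and 8460, against 9679 and 9862, with 85.3% left. Translation factors whose mRNAs carry a 5′ terminal oligopyrimidine tract behaved alike in size, with 14 of 20 lower, none higher and a median of −0.24 per ERCC count, and with 1 lower and 16 higher relative to the other genes. The shares lower per ERCC count in these 2 lists, 67.5% and 70%, were near the 63.8% of all genes, while their medians were closer to no change than the −1.06 of all genes. Eef2, the translocase of the ribosome, fell to 3111 and 3111, against 3251 and 3354, with 94.2% left. Ribosomal protein genes share reads with many near-identical pseudogenes, so the value of a single member is uncertain.

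Respiratory genes of the nucleus and of mitochondria moved by different amounts. Of 40 nuclear genes of oxidative phosphorylation, 33 were lower and 0 higher per ERCC count with a median of −0.47, and 7 were lower and 14 higher relative to the other genes. The share lower per ERCC count, 82.5%, was near the 83.7% of genes at a level of 16 or above. Atp5b, the catalytic subunit of ATP synthase, kept 90.9%. Sdhc, a membrane anchor of complex II, fell to 123 and 122 counts per 100000 ERCC counts, against 274 and 264, with 45.6% left. Its partner Sdha, the flavoprotein subunit of the same complex, had 1138 and 1183 at WT 5 h and 1173 and 1126 at WT 3 h, with overlapping groups. Of the 13 mRNAs encoded by mitochondrial DNA, 9 were lower and 0 higher, with a median of −0.83, against 6 lower and 1 higher relative to the other genes. The share lower per ERCC count, 69.2%, was near the 63.8% of all genes. The 13 mRNAs did not move together. The complex I subunit mt-Nd1 fell to 1054 and 973, against 2592 and 2580, a log2 change of −1.35 ± 0.04. The complex IV subunit mt-Co1 had 13739 and 14304, against 14450 and 14212, and was not called (edgeR, adjusted p = 0.37). The mitochondrial large ribosomal RNA mt-Rnr2, which is outside that list, was at 122% of WT 3 h. Of 77 mitochondrial ribosomal protein genes, 60 were lower and 3 higher per ERCC count with a median of −0.57, against 22 lower and 12 higher relative to the other genes. Mrps5, of the small mitochondrial subunit, was 1 of the 3, with 152 and 173 at WT 5 h and 70.9 and 63.0 at WT 3 h.

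**Figure D2:**
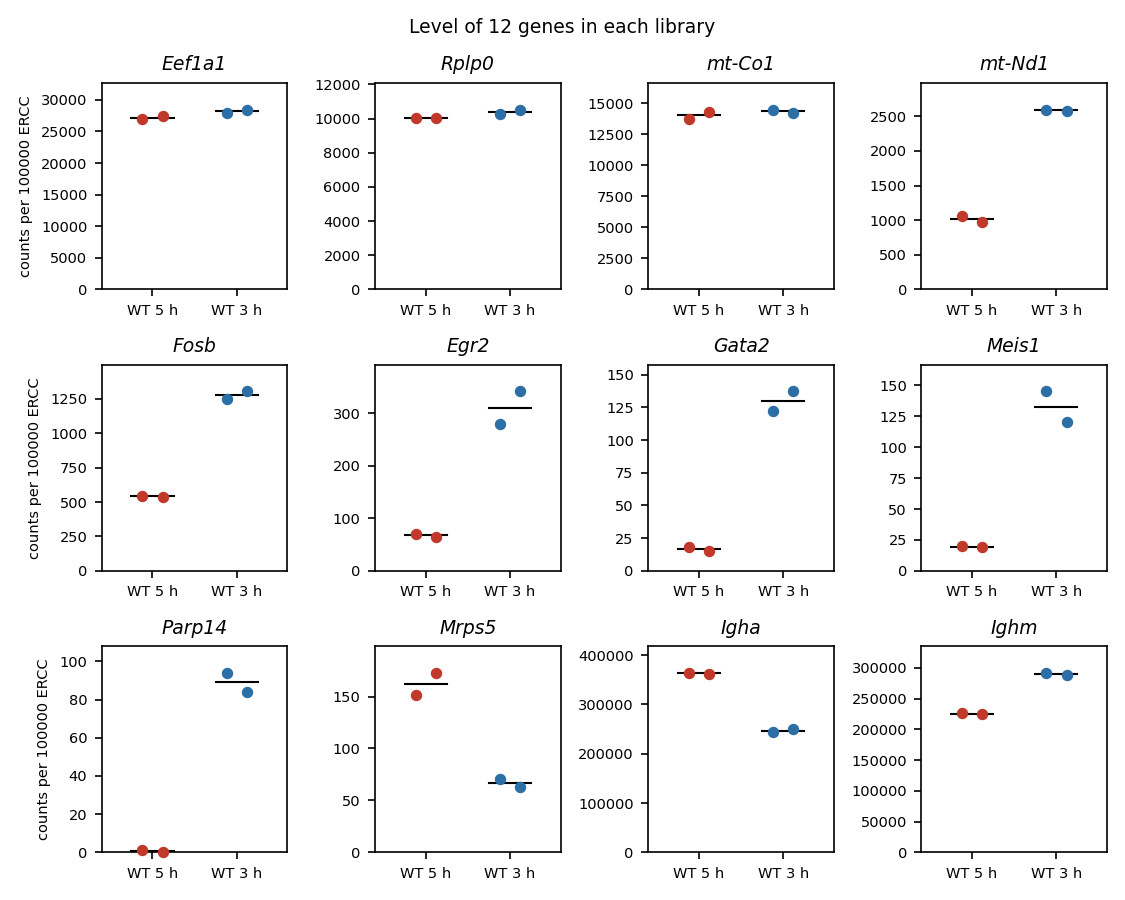
Counts per 100000 ERCC counts in each of the 2 WT 5 h and 2 WT 3 h libraries, 1 point a library, for named genes. Each gene has its own panel with a linear axis, and lines mark the means. Eef1a1 and mt-Co1 lie close together at both times, while Gata2, Egr2 and Parp14 lie lower at WT 5 h in both libraries.

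Immediate-early and other short-lived mRNAs kept falling. Of 50 such genes tested, 46 were lower and 0 higher per ERCC count, with a median of −1.02 and 49.4% left, and 38 were lower and 2 higher relative to the other genes. Their median was close to that of all genes and below that of genes at 16 or above. Fosb, a partner in the AP-1 transcription factor, had 545 and 537 counts per 100000 ERCC counts at WT 5 h, against 1248 and 1303 at WT 3 h, a log2 change of −1.24 ± 0.04 (edgeR, adjusted p = 1.1e-179). Egr2, a zinc finger factor induced by growth factors, fell further, to 70.4 and 64.8, against 280 and 342, with 21.8% left. Its relative Egr1 kept 36.1%. Fos, which had 25829 and 26272 at WT 0 h, had 2881 and 2963 at WT 1 h, 705 and 704 at WT 3 h and 366 and 379 at WT 5 h. Zfp36l1, an RNA-binding protein that brings deadenylases to AU-rich mRNAs, kept 28.2%, and Mcl1, an anti-apoptotic Bcl2 relative, had 27.2 and 33.8, against 141 and 139. Gadd45a, Dusp5, Socs2 and Id2 were the members not called.

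AU-rich windows of 5 immediate-early mRNAs are shown because such elements mark a class of short-lived mRNAs while these members differed widely in what was left. Of the 50 genes in the list, 12 have the nonamer below in their 3′ UTR and 38 do not. Each is 30 bases of the 3′ UTR on the transcript strand, 5′ to 3′, from GENCODE M21 annotation of GRCm38. Capitals mark copies of the nonamer TTATTTATT, a core AU-rich motif, and overlapping copies run on.
Pim1: agttttaatgtatTTATTTATTTATTTATT
Cish: acacagttatacagtatTTATTTATTTATT
Dusp1: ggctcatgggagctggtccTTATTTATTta
Csrnp1: ttttacattaacactctgaatTTATTTATT
Fos: cgtttttattgtgttttcaatTTATTTATT

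The window of Pim1, a kinase of cytokine signalling, lies at chr17:29495686-29495715 on the plus strand and holds 3 overlapping copies, and 76.2% of its mRNA was left at WT 5 h. The window of Cish, an inhibitor of cytokine receptors, lies at chr9:107301370-107301399 on the plus strand and holds 2 copies, and 30.1% was left. Dusp1, a phosphatase of MAP kinases, has its window at chr17:26506167-26506196 on the minus strand with 1 of the 2 copies in its UTR, and 49.4% was left. Csrnp1, a nuclear protein induced by AXIN1, has 1 copy at chr9:119972077-119972106 on the minus strand and kept 57.3%. Fos has 1 copy at chr12:85477092-85477121 on the plus strand and kept 52.8%. These 5 were taken by number of copies and then by name, among members at a level of 16 or above. Within these 5 the number of copies did not order the loss. Members without a copy ranged from 1.43% left for Egr3 to 98.4% for Id2, with Egr2, Egr1 and Btg2 at 21.8%, 36.1% and 49.4%. Those with a copy ranged from 22.5% for Fosl2 to 76.2% for Pim1. Whether the nonamer bears on the loss of list members was not tested.

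Over all genes the nonamer was searched on the transcript strand, counting overlapping copies. It was in 7.17% of all protein-coding 3′ UTRs of at least 50 bases and in 6.78% of those of tested genes at a level of 16 or above. Among the latter, the 93 genes with 2 or more copies had a median change per ERCC count of −1.14, the 352 genes with 1 copy −0.89 and the 6120 genes with none −0.76. UTRs with copies are longer. Among UTRs of 1000 to 3000 bases the median was −1.01 with a copy (185 genes) and −0.82 without (2165 genes). In UTRs of 3000 bases or more it was −1.03 with (171 genes) and −0.98 without (687 genes), and in UTRs of 300 to 1000 bases −0.69 with (69 genes) and −0.71 without (2069 genes). Medians here carry no test, and the comparison within lengths was added after seeing the data.

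Transcription factors and chromatin regulators of stem cells fell more than the median gene. Of 40 stem cell identity genes, 34 were lower and 0 higher per ERCC count with a median of −1.30, and 28 were lower and 1 higher relative to the other genes. The share lower per ERCC count, 85%, was near the 83.7% of genes at a level of 16 or above. Gata2, a zinc finger factor of stem and mast cells, had 18.1 and 15.5 counts per 100000 ERCC counts at WT 5 h, against 122 and 137 at WT 3 h, a log2 change of −2.93 ± 0.13. Meis1, a homeobox partner of Hox proteins, fell to 20.1 and 19.0, against 145 and 120. Lmo2, a bridging subunit of factor complexes with Lyl1, kept 20.5% and Lyl1 itself 20.9%. Hoxa5, Tek, Erg, Ly6a, Eya1 and Cdkn1c were not called, and Ly6a, the Sca-1 antigen used in sorting, kept 92.9%. The summed plasma cell markers, mostly Jchain, took a larger share of counts at WT 5 h, as given above. The part of that shift in these falls was not tested. Of 30 chromatin regulators, 27 were lower and 0 higher with a median of −1.22, and 20 were lower and 2 higher relative to the other genes. Kmt2a, a histone H3 methyltransferase, kept 20.2% and Asxl1, a Polycomb-associated protein, 11.7%. The DNA demethylases Tet1 and Tet3 kept 8.74% and 2.42%.

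RNA regulators fell as well. All 15 SR splicing factors were lower per ERCC count, with a median of −0.91, and 11 were lower and 0 higher relative to the other genes. Srsf5 fell to 697 and 752 counts per 100000 ERCC counts at WT 5 h, against 2039 and 2057 at WT 3 h. Of 34 genes of deadenylation, decapping and the exosome, 31 were lower and 1, Cnot3, higher per ERCC count, with a median of −1.04, against 20 lower and 2 higher relative to the other genes. Cnot4, a ubiquitin ligase associated with the CCR4-NOT deadenylase, kept 15.6% and the decapping helicase Ddx6 kept 25.6%. Smg1, the kinase that starts nonsense-mediated decay, kept 18.8%. Of 18 nuclear long noncoding RNAs and snoRNA hosts, 16 were lower and 0 higher with a median of −1.52, and 14 were lower and 0 higher relative to the other genes. Neat1, the scaffold of paraspeckles, fell to 235 and 219, against 878 and 907. Of 398 zinc finger protein genes, 251 were lower and 41 higher per ERCC count, shares of 63.1% and 10.3% near the 63.8% and 7.88% of all genes. Their median was −1.12, or −1.03 with the genes at 0 counts held at 3 counts over the group.

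**Figure D3:**
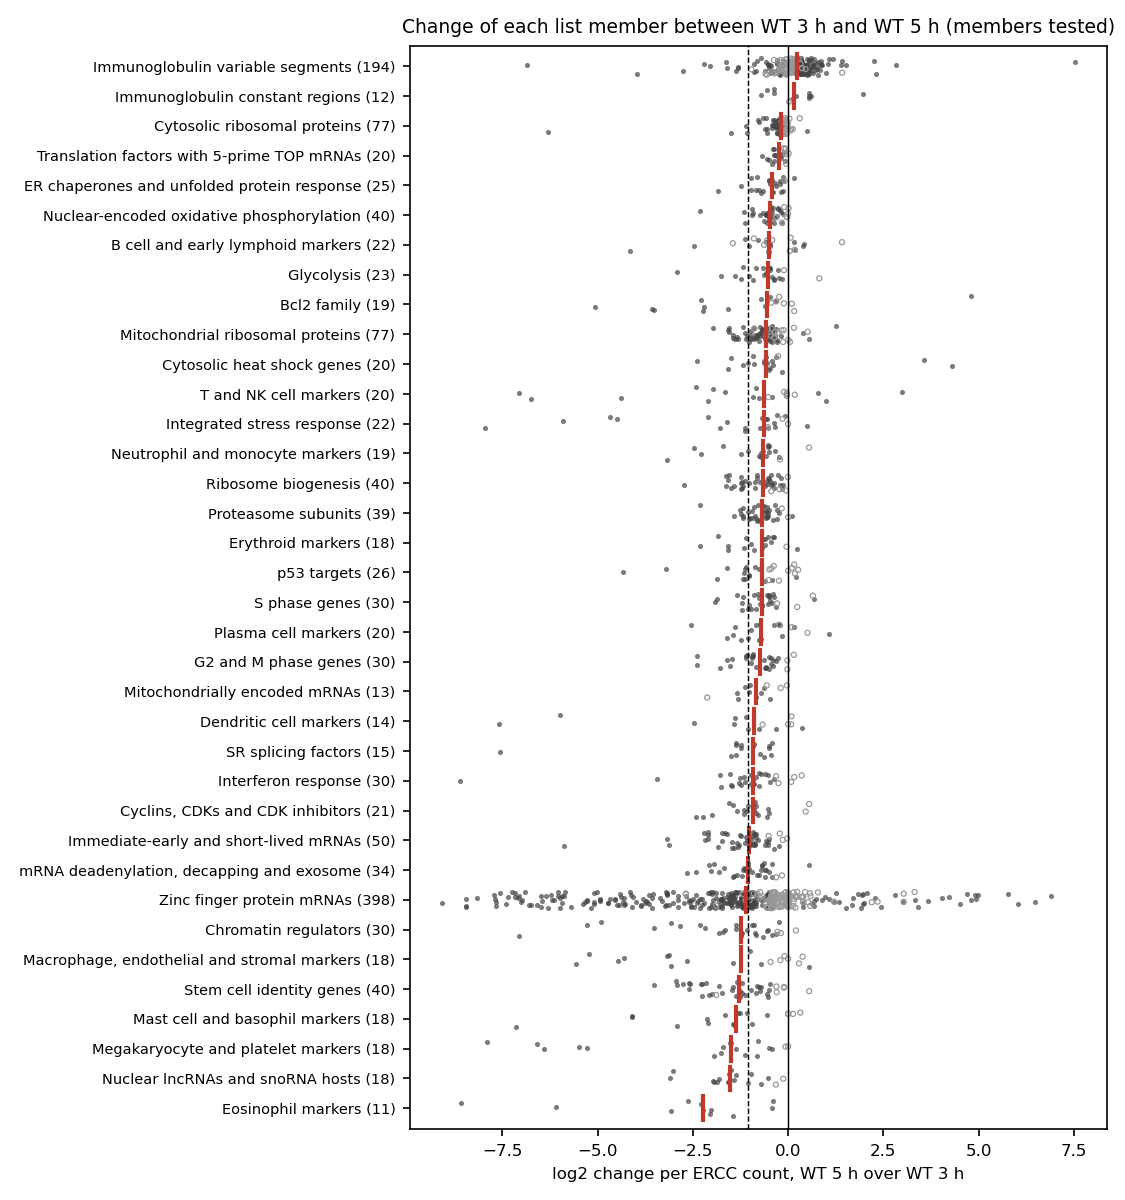
Log2 change per ERCC count, WT 5 h against WT 3 h, of each member of each gene list (points, filled where called). Vertical bars mark the list medians, and the 2 lines mark 0 and the median of all genes tested (−1.06). Medians of immunoglobulin lists lie above 0, that of ribosomal proteins at −0.18 (0.31 relative to non-immunoglobulin counts) and that of eosinophil markers at −2.24.

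Cell cycle, ribosome biogenesis, metabolic and proteasome genes lay near the median of abundant genes. Shares lower per ERCC count in these lists were 86.7% to 92.3%, against 83.7% of genes at a level of 16 or above. Over all genes tested, 49.5% were lower and 14.7% higher relative to non-immunoglobulin counts. Of 30 S phase genes 26 were lower and 1 higher per ERCC count (median −0.69), and 14 were lower and 5 higher relative to the other genes. Of 30 G2 and M phase genes 27 were lower and 0 higher (median −0.74), against 15 lower and 4 higher relative to the other genes. Single members fell much further. Mki67, a coat protein of mitotic chromosomes, had 88.3 and 87.8 counts per 100000 ERCC counts at WT 5 h, against 460 and 468 at WT 3 h. The replication genes Lig1, a DNA ligase, and Cdc6, a licensing factor, kept 26.2% and 27.4%. Of 21 cyclin, CDK and CDK inhibitor genes, 19 were lower and 0 higher (median −0.92), and 16 were lower and 0 higher relative to the other genes. Of 40 ribosome biogenesis genes 36 were lower and 0 higher (median −0.67), against 21 lower and 8 higher relative to the other genes. The processome protein Utp20 kept 15.2%. Of 39 proteasome genes 36 were lower and 1 higher (median −0.67), against 21 lower and 6 higher, and of 23 glycolysis genes 21 were lower and 0 higher (median −0.53), against 9 lower and 5 higher. The glucose transporter gene Slc2a1 in that list had 16.7 and 14.8 at WT 5 h, against 131 and 108 at WT 3 h.

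Death and stress genes were mixed. Of 26 p53 targets 15 were lower and 1 higher per ERCC count (median −0.68), against 12 lower and 4 higher relative to the other genes. Of 19 Bcl2 family genes 12 were lower and 1 higher (median −0.54), against 7 lower and 3 higher. The shares lower per ERCC count, 57.7% and 63.2%, were near the 63.8% of all genes. Bcl2l1, which encodes the survival protein Bcl-xL, fell to 48.9 and 47.2, against 143 and 146, whereas Pmaip1, the BH3-only protein Noxa, had 160 and 179 at WT 5 h and 166 and 137 at WT 3 h with overlapping groups. Of 22 integrated stress response genes 18 were lower and 1 higher (median −0.64), against 11 lower and 5 higher relative to the other genes. Mthfd2, a mitochondrial folate enzyme, was the higher one, with 184 and 197 against 127 and 142, a log2 change of 0.50 ± 0.09. Ppp1r15a, the phosphatase subunit that reverses the response, kept 45.6%. Of 25 endoplasmic reticulum chaperones and unfolded protein response genes 23 were lower and 1 higher (median −0.42), against 9 lower and 12 higher relative to the other genes. Xbp1, a factor of that response and of plasma cells, fell to 2906 and 3007, against 5827 and 5811. Of 20 cytosolic heat shock genes 17 were lower and 2 higher (median −0.57), against 11 lower and 5 higher. The inducible chaperone Hspa1a had 71 and 58 counts at WT 5 h, against 2 and 2 at WT 3 h, while Dnajb1, its cochaperone, kept 35.4%. Of 30 interferon response genes 25 were lower and 0 higher (median −0.92), against 20 lower and 2 higher relative to the other genes, and the antiviral Rsad2 had 12.7 and 15.2 per 100000 ERCC counts at WT 5 h, against 159 and 141 at WT 3 h.

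Marker mRNAs of the lineages differed in what was left. Of 11 eosinophil markers all 11 were lower per ERCC count with a median of −2.24, and 9 were lower and 1 higher relative to the other genes. Their sum relative to non-immunoglobulin counts did not fall with the median. It was 4145 and 4169 CPM at WT 5 h, against 4085 and 4221 CPM at WT 3 h, with overlapping groups. The median weighs each marker alike, so it does not describe the total of these mRNAs. Prg3, a granule protein, fell to 71.6 and 61.3, against 276 and 276. Il5ra, the receptor of interleukin 5, kept 20.9%, and the lectin receptor Siglecf had 0 counts in both WT 5 h libraries, against 57 and 85 at WT 3 h. Of 18 megakaryocyte and platelet markers 16 were lower and 0 higher (median −1.51), against 13 lower and 1 higher relative to the other genes. Selp, the adhesion receptor of platelet granules, kept 25.9%. Of 18 mast cell and basophil markers 14 were lower and 0 higher (median −1.37), against 13 lower and 0 higher, and the basophil protease Mcpt8 kept 37.5%. Of 19 neutrophil and monocyte markers 17 were lower and 0 higher (median −0.65), against 9 lower and 2 higher relative to the other genes. Of 18 erythroid markers 16 were lower and 1 higher (median −0.68), against 8 lower and 3 higher. Klf1, the erythroid transcription factor, fell to 84.9 and 69.1, against 290 and 268, whereas Car1, carbonic anhydrase 1, was the higher one with 1795 and 1845 against 1553 and 1554. Of the remaining lists, 11 of 20 T and NK cell markers were lower and 3 higher (median −0.64), 11 of 18 macrophage, endothelial and stromal markers were lower and 1 higher (median −1.22, or −0.86 with genes at 0 held at 3 counts), and 9 of 14 dendritic cell markers were lower and 1 higher (median −0.90). Their shares lower per ERCC count, 55.0%, 61.1% and 64.3%, were near the 63.8% of all genes. Relative to the other genes these 3 lists had 8 lower and 6 higher, 8 lower and 1 higher, and 8 lower and 3 higher members.

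Immunoglobulin mRNAs differed from the other lists in that more of them were higher than lower per ERCC count. Relative to non-immunoglobulin counts this was not particular to them, since ribosomal protein and translation factor genes, among others, also had more members higher than lower. Per ERCC count, immunoglobulin genes together had 1.95 and 1.98 counts at WT 0 h and 8.55 and 8.52 at WT 1 h. They had 21.6 and 21.5 at WT 3 h and 23.0 and 23.0 at WT 5 h. The cause of this rise under the block was not tested, so the late values are not read as mRNA stability. Of 12 constant region genes 4 were lower and 7 higher per ERCC count with a median of 0.15, and of 194 variable segment genes 39 were lower and 105 higher with a median of 0.23. Relative to non-immunoglobulin counts 0 constant genes were lower and 10 higher, and 11 variable segments were lower and 158 higher. Igha, the constant region of IgA, had 363991 and 362014 counts per 100000 ERCC counts at WT 5 h, against 243742 and 250128 at WT 3 h, 147% of the earlier level. Ighm, that of IgM, went the other way, with 226257 and 224749 against 291898 and 288283. The segment Ighv9-1 had 723 and 734, against 4976 and 4927, while the segment Igkv2-109 had 3504 and 3533, against 1923 and 1913. Igkc, the kappa constant region, was at 102% and not called. Jchain, which joins immunoglobulin polymers, had 269244 and 276677 at WT 5 h and 246688 and 245467 at WT 3 h, a log2 change of 0.15 ± 0.03 (edgeR, adjusted p = 8.1e-07). In the shared time course on summed files, which also draws on the libraries labelled Nat10-deficient, the fitted changes of Jchain and Igha per ERCC count were −0.73 and −0.28 and the medians of the constant and variable lists −0.71 and −0.66, with none of the 2 genes called. Of 20 plasma cell markers 15 were nevertheless lower and 2 higher per ERCC count (median −0.72), and 11 were lower and 8 higher relative to the other genes. Bhlha15, a secretory cell factor, kept 16.9% and Tnfrsf13b, the receptor TACI, 32.9%. Of 22 B cell and early lymphoid markers 8 were lower and 4 higher (median −0.49), against 5 lower and 8 higher relative to the other genes. Cd79a, a signalling chain of the B cell receptor, had 2200 and 2309 against 2052 and 1969. Its call was lost with DESeq2 (adjusted p = 0.0621) and without the WT 3 h library of replicate 2 (edgeR, adjusted p = 0.0516). Variable segments share much of their sequence, so single segments are uncertain.

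The mRNAs that fell most, among genes at a level of 16 or above, were nearly at 0 counts at WT 5 h. Parp14, an ADP-ribosyltransferase of cytokine signalling at chr16:35653244-35691914 on the minus strand of GRCm39, had 5 and 0 counts at WT 5 h, against 204 and 172 at WT 3 h, with 0.795% left per ERCC count (log2 change −6.68 ± 0.29). Rbm33, an RNA-binding protein at chr5:28522119-28624237, had 5 and 6 counts, against 239 and 210, with 1.66% left. Their earlier differences were smaller. In counts per 100000 ERCC counts Parp14 had 210 and 202 at WT 0 h, 96.5 and 105 at WT 1 h, 93.9 and 84.0 at WT 3 h and 1.41 and 0 at WT 5 h. Rbm33 had 171 and 174, 139 and 145, 110 and 103, and 1.41 and 2.11 at the same times. Dock11, an exchange factor for Cdc42, had 7 and 3 counts at WT 5 h and 173 and 179 at WT 3 h. The sterol enzyme Sqle had 10 and 7 counts, against 167 and 188, with 3.14% left. Zfp281, Tet3, Znrf3, Bicral, Amot, Dmxl2, Ccdc15 and Plcd3 complete the 12 largest falls, and the least of these, Plcd3, kept 5.30%.

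The 12 largest rises at the same level of 16 or above were smaller in size than those falls. Genes under that level could differ by more, such as Tmem198, with 61 and 64 counts at WT 5 h, against 0 and 0 at WT 3 h. Psrc1, a microtubule-binding protein of the spindle at chr3:108291155-108295547, had 170 and 131 counts at WT 5 h, against 30 and 13 at WT 3 h, 468% of the earlier level per ERCC count (log2 change 2.20 ± 0.22). Mrps5 had 536 and 490 counts, against 154 and 129 at WT 3 h. Armc6, an armadillo repeat protein, had 209 and 195, against 39 and 34. Psrc1 had been higher before, with 126 and 130 per 100000 ERCC counts at WT 0 h, 43.9 and 32.6 at WT 1 h, 13.8 and 6.35 at WT 3 h and 48.1 and 46.2 at WT 5 h. Mrps5 had 680 and 675 at WT 0 h, 311 and 280 at WT 1 h, 70.9 and 63.0 at WT 3 h and 152 and 173 at WT 5 h. Cep83os, H2-Eb2, Ift172, Arl5a, Pyroxd2, Lyrm9, Klrk1, Slc38a7 and Abcc4 complete the list, and the least, Abcc4, reached 220%. Cep83os is named as a transcript opposite Cep83 and annotated as a noncoding RNA of a bidirectional promoter. Counting did not use strand, so reads cannot be told apart where exons of such a pair overlap. Whether they overlap was not checked. In the shared time course on summed files the fitted changes of Ift172, Lyrm9 and Klrk1 per ERCC count were −0.47, −0.0202 and −0.52.

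**Figure D4:**
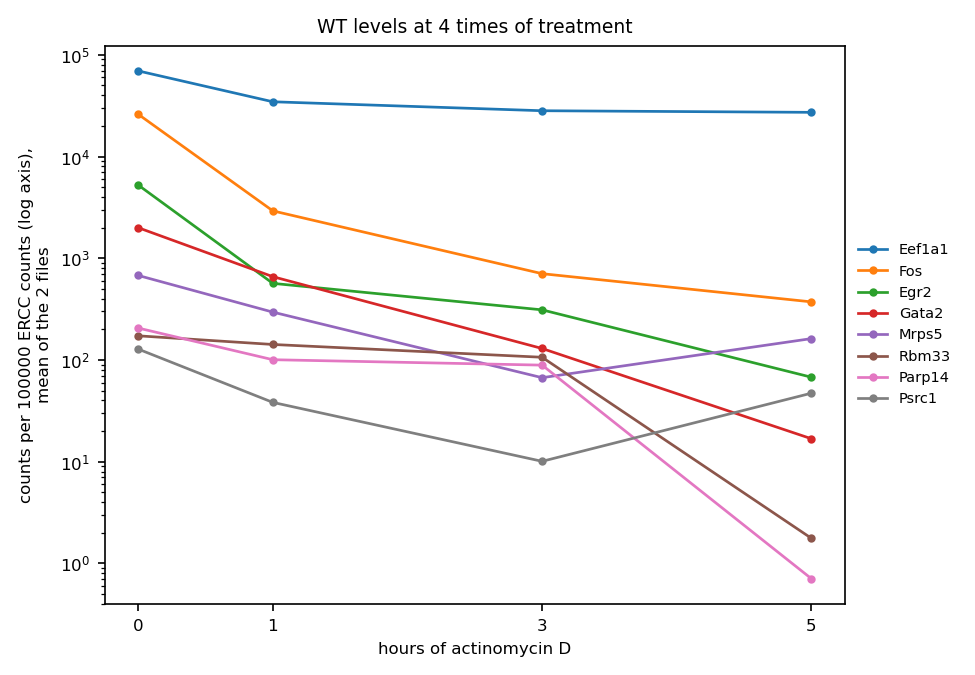
Counts per 100000 ERCC counts, mean of the 2 WT libraries at each of 0, 1, 3 and 5 h of actinomycin D, on a log axis, for 8 named mRNAs. Eef1a1 and Fos differ most between 0 and 3 h, Parp14 and Rbm33 between 3 and 5 h, and Mrps5 and Psrc1 are higher at WT 5 h than at WT 3 h.

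Many genes fell to 0 counts. Of 16528 genes with at least 20 summed counts at WT 3 h, 2460 (14.9%) had 0 counts in both WT 5 h libraries. In the other direction, 518 of 13318 genes with at least 20 counts at WT 5 h (3.89%) had 0 in both WT 3 h libraries. The genes were chosen by these counts, so their fall carries no test. The share at 0 depended on the starting count. It was 39.6% of genes with 20 to 49 counts at WT 3 h, 15.9% of those with 50 to 99, 3.29% of those with 100 to under 200, 0.253% of those with 200 to under 500 and 0% of the 3414 with 500 or more. Within a pair of files, at most 0.0796% of genes with at least 10 counts in the first file had 0 in the second. The files of a pair name the same alignment and may be technical, so this share does not measure zeros between separate sorts. Its minimum also differs from the 20 summed counts used above. In the earlier WT intervals 6.58% of genes went to 0 from 0 h to 1 h and 6.16% from 1 h to 3 h, and in the libraries labelled Nat10-deficient 3.26%, 3.81% and 4.40% did so over the 3 intervals in turn. Genes also appeared from 0 under the block. Of genes with at least 20 counts at the end, 9.38% had been at 0 at WT 0 h for 0 h to 1 h. From 1 h to 3 h this share was 9.98%, so in both earlier WT intervals it exceeded the share going to 0. In the libraries labelled Nat10-deficient it was 2.18%, 4.48% and 6.19%. At WT 5 h 21760 and 20974 genes had a count at all, against 29024 and 28520 at WT 3 h. Total counts were higher at WT 5 h, as given above, and non-immunoglobulin counts were 5500411 and 4487204 at WT 5 h and 4783805 and 4534326 at WT 3 h. The part of library complexity in these zeros was not tested.

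**Figure D5:**
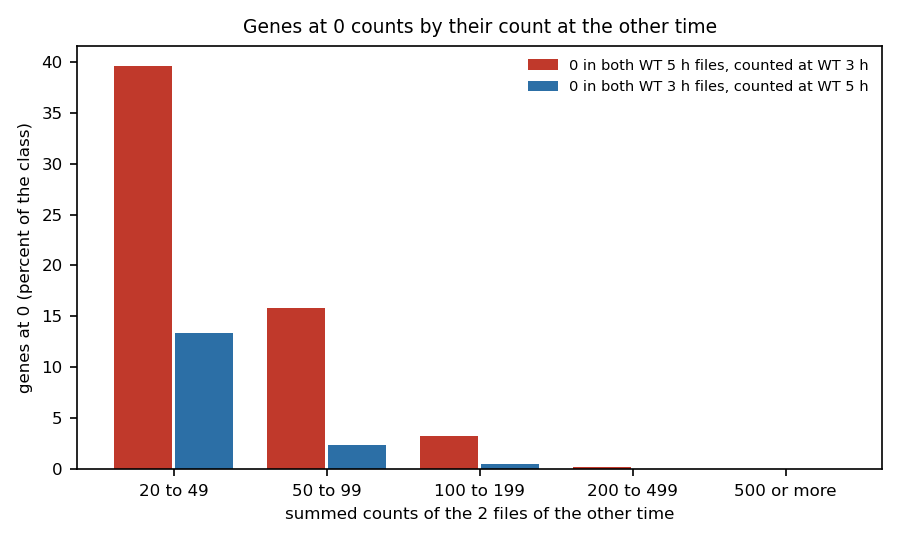
Percent of genes at 0 counts in both libraries of 1 time, by their summed count at the other time. The bars for 0 at WT 5 h stand above those for 0 at WT 3 h in each class under 500 counts, at 39.6% against 13.4% in the lowest class, and both are at 0% from 500 counts.

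The genes at 0 were mostly weakly counted and often not protein coding. Their median was 31 summed counts at WT 3 h and their highest 282, and 1097 of the 2460 (44.6%) were protein coding, against 86.5% of the 14068 genes that kept counts. Olfactory and vomeronasal receptor genes, which are known for sensing odours and pheromones, made up 157 of the 2460, against 162 of the 14068. In the earlier libraries 641 had 0 counts at both WT 0 h and WT 1 h, so of the 4 WT times they were counted at WT 3 h alone, while 456 had at least 20 summed counts at each of these times. In the libraries labelled Nat10-deficient, 801 of the 2460 had at least 20 summed counts at 5 h.

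Trim32, a ubiquitin ligase at chr4:65523223-65534475, had 0 and 0 counts at WT 5 h, against 150 and 132 at WT 3 h, after 299 and 314 at WT 0 h and 191 and 134 at WT 1 h. With WT 5 h held at 3 counts over the group, it was at least 142-fold lower per ERCC count. Trim45, another ligase of that family, had 0 and 0 counts, against 138 and 108 at WT 3 h. Spib, an Ets factor of B cells and plasmacytoid dendritic cells, had 0 and 0, against 94 and 110, and was at least 103-fold lower. It had only 14 and 14 counts at WT 0 h. Zbtb26, a zinc finger protein, had 0 and 0, against 105 and 96. Slc35f6, Cep135, Gfpt2, Adck1, Itgb8, Lgr5, Bivm and Crispld1 complete the 12 with the most WT 3 h counts. Of the gene lists, Oas2 of the interferon response had 0 and 0 counts, against 73 and 71, and Trib3 of the integrated stress response 0 and 0, against 50 and 41.

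The late change of WT was set against that of the libraries labelled Nat10-deficient, relative to non-immunoglobulin counts. Nat10, the RNA acetyltransferase that the labels name as missing, had 2122 and 2481 counts at 5 h and 1276 and 1361 at 3 h in those libraries, more than the 228 and 170 at WT 5 h and the 345 and 278 at WT 3 h. Counts over the whole gene do not show whether a deleted part was read, so they do not check the label. For 9118 genes (36.4%) the change in WT was more negative than in the libraries labelled Nat10-deficient, and for 4928 (19.6%) it was more positive, 56% in either direction (edgeR interaction, adjusted p under 0.05). On TMM factors these were 7360 and 6305, so more positive calls made up 46.1% of the calls in place of 35.1%. These counts, too, rest on the spread between files.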

How the data were processed

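The authors deposited a count table per library, holding fragments per gene. The file headers name featureCounts 1.6.3 run unstranded, and STAR, DESeq2 and GRCm39 are named in the submitters' processing notes. Each table has 55506 entries, 92 of them ERCC transcripts. Groups came from the labels. Members, gene lists and tests were chosen with earlier results of these data known.

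edgeR 4.0.16 in R 4.3.3 was fitted to all 16 libraries with a mean for each of the 8 groups (quasi-likelihood F test). Library sizes were summed ERCC counts or, separately, summed counts of genes that are not immunoglobulin genes. The 25081 genes that filterByExpr kept were tested with Benjamini-Hochberg adjustment over all of them and a threshold of 0.05. Standard errors are the absolute log2 change over the square root of F. Percent left is the ratio of mean counts per ERCC count, WT 5 h over WT 3 h. The fit was tested on simulated data. Floors of 3 counts cover counting error only, since reads carry no molecular identifiers.

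Named genes, taken in selection by a rule, are the 12 largest falls and 12 largest rises relative to non-immunoglobulin counts at a level of at least 16 CPM, the 12 most abundant genes within 0.25 of no change, in each list the 4 members with the smallest p, and the genes at 0 with the most counts, besides the most abundant genes at WT 5 h. A few genes within that rule are not reported here. Other list members named were chosen after their values were seen. Alternatives were DESeq2 1.42.0, other scalings and filters, a replicate block, summed files, a tested change of more than 2-fold and each WT library left out.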

Additional observations from a re-analysis of the deposited data

Results flagged for a closer look

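The late change differed between the genotypes for many genes by a test of the difference itself. It was more negative in WT for 9118 genes and more positive for 4928 of 25081 (edgeR interaction, adjusted p under 0.05), with 2 files a group. On ERCC scaling these were 8298 and 5450. The libraries labelled Nat10-deficient held 18764 and 19021 ERCC counts at 5 h and 8560 and 9065 at 3 h, against 353458 and 283734 at WT 5 h and 217180 and 204836 at WT 3 h. Immunoglobulin genes took 3.92% and 3.89% of gene counts at 5 h in those libraries and 24.6% and 24.4% at 3 h, and the part of that shift was not tested.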

How the results depend on the processing

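Per ERCC count, 16006 genes were lower and 1976 higher. These became 6914 and 403 of the 8402 genes with a mean of at least 50 counts, 10173 and 1179 for a tested change of more than 2-fold, and 1013 and 0 with files summed and a time course shared by both genotypes, which changes the libraries and the model together. Without 1 WT library they ranged from 14753 to 15201 and from 1504 to 1743. Relative to non-immunoglobulin counts, 12413 were lower and 3684 higher, against 4501 and 1627 at a mean of at least 50 counts, 7599 and 1528 for more than 2-fold, and 8 and 0 in that shared time course on summed files. Without 1 WT library these ranged from 11028 to 11362 and from 3044 to 3300. Higher genes numbered 6974 on TMM factors, 6226 on median-of-ratios factors and 2381 on all gene counts. Genes at 0 at WT 5 h numbered 4915 from at least 10 counts and 499 from at least 50, in place of 2460, and 825 to 2801 without 1 library, where the same minimum falls on fewer files. Genes at 0 at WT 3 h numbered 1173 and 64, in place of 518, and 107 to 625. The interaction counts ranged from 8213 to 8460 and from 4475 to 4613 without 1 WT library. DESeq2 called 14171 lower and 1420 higher per ERCC count. Replicate numbers did not pair the samples, with correlations of −0.014 to 0.043, and a replicate block gave 15909 and 1928 per ERCC count, 12319 and 3642 relative to non-immunoglobulin counts and 9028 and 4891 for the interaction. The all-gene median of −0.58 moved to −0.05 on TMM, −0.17 on median-of-ratios, −0.90 on all gene counts and −0.47 without mitochondrial and plasma cell genes. List medians above 0 numbered 7 of 36 relative to non-immunoglobulin counts, 25 on TMM factors, 22 on median-of-ratios factors and 2 on all gene counts. In the shared time course on summed files some called directions turned. Per ERCC count the log2 changes became −0.73 for Jchain, −0.47 for Ift172, −0.22 for Igkv2-109, −0.52 for Klrk1, −0.53 for Cd79a, −0.0202 for Lyrm9, −0.28 for Igha, −0.13 for Ighg2c, −0.24 for Ighg2b and −0.0254 for Hspa1a. Relative to non-immunoglobulin counts they became −0.0590 for Ift172 and −0.0921 for Klrk1, and the medians of the immunoglobulin constant and variable lists became −0.71 and −0.66 per ERCC count. The cause was not tested. Leaving that fit aside, the settings for 127 named genes per ERCC count kept direction and call in 1326 cases, lost the call in 43 and gained it in 20. Precision is lowest for weakly counted genes.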
